A study of Rattus norvegicus with 12 samples.

Results

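Voltage-gated sodium channels and hyperpolarization-activated (HCN, pacemaker) channels are described here through 7 rat genes, Scn4a, Scn3a, Scn2b, Scn3b, Scn4b, Hcn2, and Hcn4. They were chosen by name, as every transcript row that carries 1 of these names, which gave 7 rows of 18752 transcripts and 7 of 17301 gene names. The data are RNA-Seq of adult rat ventricular myocytes (ARVMs) of Sprague Dawley rats, 6 samples transduced with an adenovirus for green fluorescent protein (Ad-GFP) and 6 with an adenovirus for human NR4A2, an orphan nuclear receptor (Ad-h-NR4A2). Both viruses were given at 50 MOI (multiplicity of infection, infectious units per cell), all cultures held the contraction inhibitor BDM on laminin, and RNA was taken at 48 h. The NR4A2 cDNA was driven by the cytomegalovirus promoter, the hearts came from different rats, and samples numbered 24 to 29 occur in both groups. The comparison asked which transcripts differ when NR4A2 is overexpressed in cardiomyocytes.

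The pore of a sodium channel is 1 large α-subunit, and its opening carries the upstroke of the action potential. Small β-subunits with an immunoglobulin fold sit beside the pore, where they set its gating and its amount at the membrane, and can also bind to adhesion molecules. HCN channels are tetramers opened by hyperpolarization and by cAMP; they carry the pacemaker current of the sinus node and are known at lower levels in working ventricular muscle.

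Each gene had 1 transcript row, and no other listed gene overlapped its locus. In the authors' build, Rn5, Scn2b (chr8:48045397-48053999) and Scn4b (chr8:48067555-48082728) are neighbours 13555 nucleotides apart, and Scn3b (chr8:61379751-61402266) and Hcn4 (chr8:63367893-63405310) lie on the same chromosome. Scn4a lies at chr10:94256236-94305849, Scn3a at chr3:58167493-58277870, and Hcn2 at chr7:13021934-13040277. These spans run from the first to the last exon of the transcript.

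Promoter sequences from RefSeq (build GRCr8) matched 5 of the 7 genes, Scn4a, Scn3a, Scn2b, Scn4b, and Hcn2. Among the 7 genes, Hcn2 and Scn4b were the HCN and β-subunit genes with the highest levels. Scn2b, the neighbour of Scn4b, had the lowest number of fragments. For these, the 250 bases upstream of the start are printed. They are written 5′ to 3′ on the strand of the gene; capitals mark AGGTCA (a core motif bound by many nuclear receptors) or GGGCGG (the GC box), read on either strand.
Hcn2, GRCr8 chr7:10639458-10639707, minus strand: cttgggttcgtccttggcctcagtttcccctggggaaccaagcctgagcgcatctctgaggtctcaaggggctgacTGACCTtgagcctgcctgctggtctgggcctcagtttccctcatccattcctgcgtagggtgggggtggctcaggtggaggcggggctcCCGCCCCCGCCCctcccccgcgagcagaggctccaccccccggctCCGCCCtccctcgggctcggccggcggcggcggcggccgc
Scn4b, GRCr8 chr8:54343623-54343872, plus strand: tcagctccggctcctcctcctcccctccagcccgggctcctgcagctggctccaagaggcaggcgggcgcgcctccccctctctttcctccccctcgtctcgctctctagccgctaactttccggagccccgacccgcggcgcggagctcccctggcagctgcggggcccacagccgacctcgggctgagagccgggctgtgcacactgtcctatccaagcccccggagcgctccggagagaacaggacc
Scn2b, GRCr8 chr8:54322133-54322382, plus strand: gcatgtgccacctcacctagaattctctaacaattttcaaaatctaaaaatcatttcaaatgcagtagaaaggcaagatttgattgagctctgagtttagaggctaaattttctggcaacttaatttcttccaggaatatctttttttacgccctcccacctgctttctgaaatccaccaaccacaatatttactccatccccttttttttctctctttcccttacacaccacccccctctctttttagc

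In these windows, both strands were searched for AAAGGTCA (the NBRE, the site that NR4A receptors bind as monomers), AGGTCA (held within the NBRE), GGGCGG, TGACGTCA (the cAMP response element), and TATAAA (the TATA box). The NBRE was found in 0 of the 5 promoters, against 1.24% of 33360 rat promoters of the same length. Hcn2 held 1 AGGTCA, in the reverse sense, a motif present in 14.1% of all promoters, and 3 GC boxes, a motif present in 30.5%. The other 4 promoters held neither of these, and TGACGTCA (1.59% of all promoters) and TATAAA (12.9%) were in none of the 5. A match is a description of letters and not a bound site, and a missing match holds for these windows alone. Base composition set the printed promoters apart. Hcn2 and Scn4b were each 71.6% G and C, Scn4a was 62.8%, Scn3a 41.6%, and Scn2b 38.8%, against a median of 51.6% over all promoters (quartiles 44 and 60%).

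Depth, recovered from the low values, was 18800000 to 28000000 fragments per sample. The Nr4a2 transcript, which also takes reads of the human cDNA that align to it, averaged 0.884 ± 0.309 FPKM (SD, n = 6) in Ad-GFP samples and 524 ± 70.3 FPKM in Ad-h-NR4A2 samples, and it was higher in all 6 same-numbered pairs. FPKM counts fragments relative to transcript length and to the depth of the sample, so levels can be compared between genes. The summed ventricular markers Myl2 and Myl3 were between 15956 and 18693 FPKM with Ad-GFP and between 13923 and 16858 FPKM with Ad-h-NR4A2. The cardiomyocyte markers summed to 17688 to 22842 and 15658 to 19261 FPKM, and 2 of the 6, Myh7 and Ryr2, were called lower, against 7.24% of all genes. Tnnt2 (ratio 0.833, adjusted p = 0.00477, limma) and Myh6 (ratio 0.678, adjusted p = 1.14e-04) were lower but short of 1.5-fold. Actc1 and Tnni3 did not pass the test (adjusted p = 0.531 and 0.119). Atrial markers ranged from 70.6 to 401 and from 80.0 to 406 FPKM, fibroblast markers from 6.99 to 25.3 and from 4.97 to 24.04 FPKM, and endothelial markers from 4.48 to 15.3 and from 3.40 to 14.1 FPKM. In these 3 lists 0 genes were called, and Col1a2 was at 0 in all 12 samples. Smooth muscle markers summed to 7.04 to 20.2 and 6.83 to 16.5 FPKM, with Myh11 called lower, and Schwann cell markers to 0.760 to 1.42 and 0.744 to 1.40 FPKM. Macrophage markers summed to 5.93 to 17.2 FPKM with Ad-GFP and 37.0 to 44.1 FPKM with Ad-h-NR4A2; this came from Csf1r (10.1 ± 3.87 and 40.2 ± 2.35 FPKM), while the defining marker Cd68 averaged 0.463 and 0.482 FPKM.

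In cells transduced with Ad-GFP, the levels of the channel subunits spanned 3 orders of magnitude. Scn4b was highest at 74.8 ± 17.3 FPKM (SD, n = 6), followed by Hcn2 at 28.1 ± 5.44, Scn3b at 2.71 ± 0.570, Hcn4 at 1.31 ± 0.435, and Scn4a at 0.259 ± 0.102 FPKM. Scn3a and Scn2b were near the limit of detection, with averages of 0.0498 and 0.0407 FPKM. Each of the first 5 exceeded the next within all 6 samples of either group. Across samples, the ranges of Scn3b (lowest 2.05 FPKM) and Hcn4 (highest 2.14 FPKM) still met with Ad-GFP, as did those of Scn4a (lowest 0.0887 FPKM) and Scn2b (highest 0.118 FPKM) with Ad-h-NR4A2. Scn2b and Scn3a had no fixed order, with Scn2b above Scn3a in 2 of 6 Ad-GFP samples and 3 of 6 Ad-h-NR4A2 samples. With Ad-h-NR4A2, the order of the first 5 was the same.

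**Figure D1:**
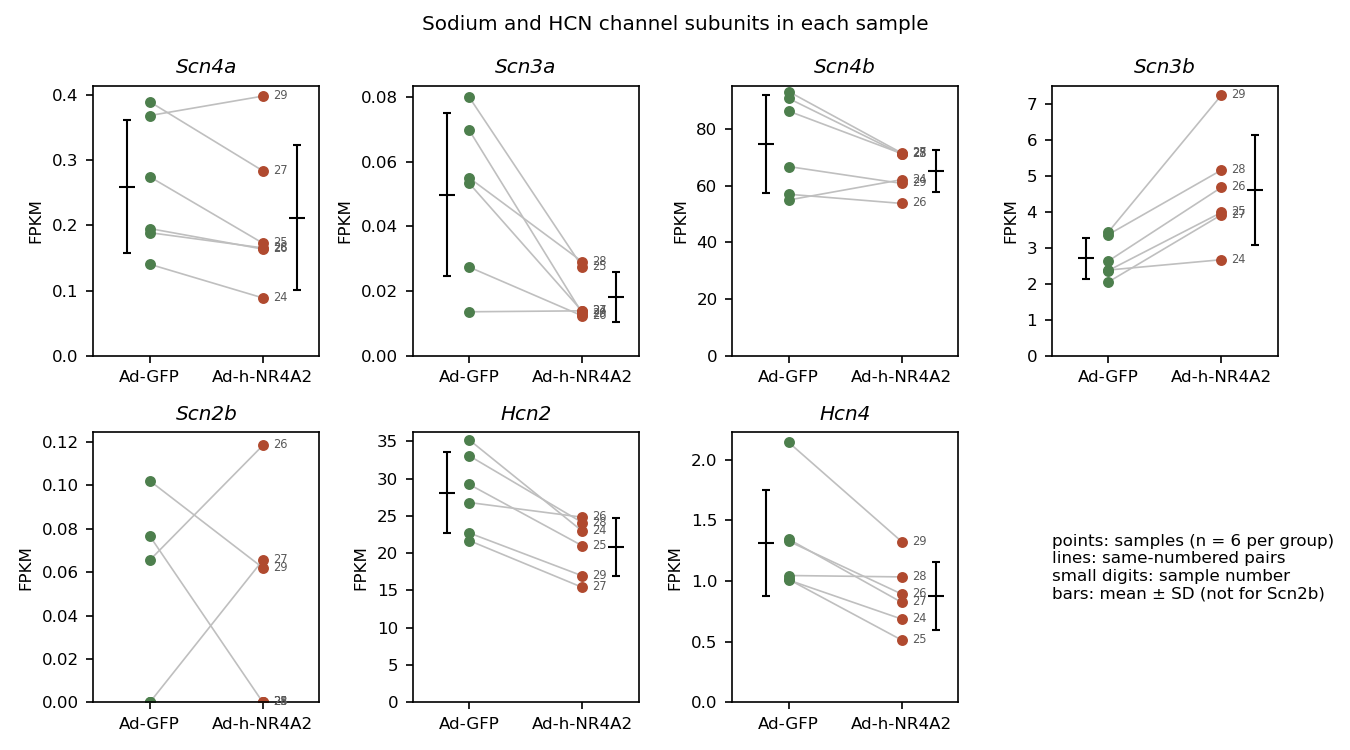
FPKM of each channel subunit (y axis, from 0, own scale per gene) in 6 Ad-GFP and 6 Ad-h-NR4A2 samples; points are samples, lines join samples of the same number, and bars are means ± SD. Scn3b lines all go up and those of Hcn2 and Hcn4 all go down, while the 2 groups share part of their range in each panel.

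Between groups, 1 of the 6 subunits that could be tested passed both limits, an adjusted p below 0.05 and a 1.5-fold ratio of mean FPKM; this was Scn3b, which rose. Over all 10950 genes tested, 15.2% passed both limits, 7.94% as a rise and 7.24% as a fall. On adjusted p alone, Hcn2 also passed, as a fall, which makes 2 of 6 subunits, against 40.9% of all genes (19.3% higher and 21.7% lower). The share of called subunits was close to the background in each case. The other 5 tested subunits had lower mean FPKM with Ad-h-NR4A2, and the median log2 difference of the 6 was -0.28, against -0.02 over all genes. In a fit that takes the sample number as a block, since same-numbered samples deviated together, 4 of 6 subunits had an adjusted p below 0.05, against 59.4% of all genes. None of the 6 separated the groups fully, while 21.5% of all genes had no overlap between groups. In bulk RNA, fewer cells of a type and less RNA per cell cannot be told apart.

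**Figure D2:**
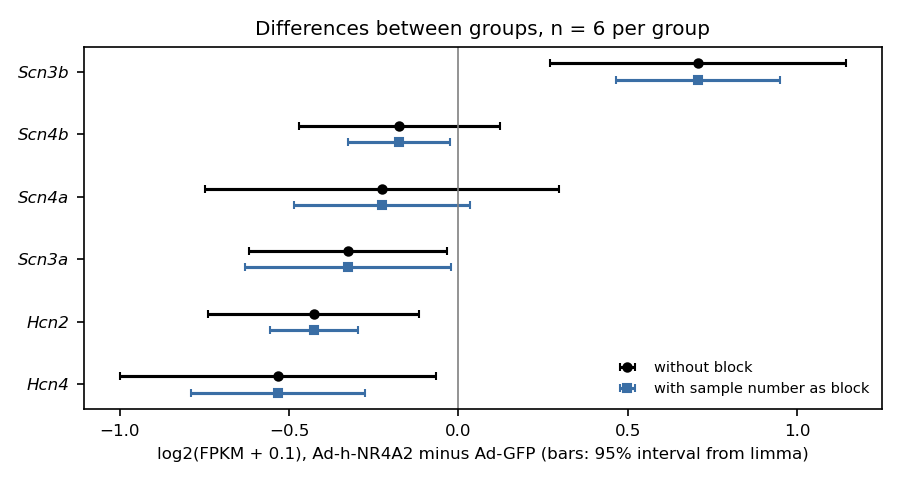
Difference in log2(FPKM + 0.1), Ad-h-NR4A2 minus Ad-GFP (x axis), for the 6 subunits tested (y axis), n = 6 per group; points are estimates from limma and bars 95% intervals, in black without and in blue with the sample number as a block. Scn3b lies at 0.71, above 0 in both fits, and Hcn2 (-0.43) and Hcn4 (-0.53) lie below 0 in both.

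Among the pore-forming subunits, neither Scn4a nor Scn3a passed the test. Scn4a, which encodes the pore of the adult skeletal muscle channel, had a lowest, median, and highest level of 0.140, 0.234, and 0.389 FPKM with Ad-GFP, from 21 to 70 fragments per sample. With Ad-h-NR4A2, these were 0.0887, 0.169, and 0.398 FPKM, from 13 to 62 fragments. The ranges covered each other almost fully, and the highest Ad-h-NR4A2 value was above all Ad-GFP values. The ratio of means was 0.817, with a log2 difference of -0.23 ± 0.24 (SE; 95% interval -0.75 to 0.30, Benjamini-Hochberg adjusted p = 0.493 from limma), and the exact permutation test gave p = 0.403. Scn4a was lower in 5 of 6 same-numbered pairs.

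Scn3a, the pore of a channel found mainly in the developing nervous system, was barely detected. With Ad-GFP, its lowest, median, and highest levels were 0.0136, 0.0541, and 0.0799 FPKM, which came from 2, 4, 9, 10, 10, and 13 fragments in the 6 samples. With Ad-h-NR4A2, they were 0.0124, 0.0138, and 0.0291 FPKM, from 2 fragments in 4 samples and 5 in the other two. The 4 highest values were all Ad-GFP samples, and the other two Ad-GFP samples, 24 and 26, lay within the Ad-h-NR4A2 range. Summed over samples, 48 fragments stood against 18, and the ratio of mean FPKM was 0.367. The log2 difference, made small by the 0.1 added to such low values, was -0.33 ± 0.14 (95% interval -0.62 to -0.03, adjusted p = 0.0703, limma), and the exact permutation test gave p = 0.0303. Without Ad-GFP sample 24, the log2 difference was -0.40 with an adjusted p of 0.0256, which would add Scn3a to the calls. Of the neuron markers, 1 moved alongside. All 4 are in the tables and their sum was 1.36 to 3.25 FPKM with Ad-GFP and 0.508 to 1.10 FPKM with Ad-h-NR4A2, nearly all of it Tubb3, which fell from 2.06 ± 0.659 to 0.666 ± 0.132 FPKM (adjusted p = 4.31e-05, limma). Syn1 averaged 0.128 and 0.155 FPKM, higher in 3 of 6 pairs (adjusted p = 0.959). Of the defining markers, Snap25 was at 0 in all 12 samples and Rbfox3 in 11, with 1 fragment in the other. The part of such transcripts in the Scn3a values was not tested.

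Among the β-subunits of the 7 genes, Scn3b rose and Scn2b could not be tested. Scn4b did not pass the test used for calls, which leaves the sample number out. Scn3b encodes the β3-subunit, which joins the pore without a covalent bond and shifts channel inactivation. Its lowest, median, and highest levels were 2.05, 2.51, and 3.44 FPKM with Ad-GFP (166 to 359 fragments per sample) and 2.68, 4.34, and 7.25 FPKM with Ad-h-NR4A2 (215 to 620 fragments). Of the 6 Ad-h-NR4A2 samples, 5 lay above every Ad-GFP sample, and the remaining sample, 24, lay inside the Ad-GFP range. The ratio of means was 1.70 and the log2 difference 0.71 ± 0.20 (95% interval 0.27 to 1.14, adjusted p = 0.0129, limma), with p = 0.0108 in the exact permutation test. Scn3b was higher in all 6 pairs, as were 24.1% of all genes, with ratios from 1.12 in pair 24 to 2.11 in pair 29 and a median of 1.73. The call held with each of the 12 samples left out in turn, at an adjusted p between 0.00198 and 0.0300; the ratio was lowest, 1.51, without Ad-h-NR4A2 sample 29.

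Scn4b encodes the β4-subunit, which is bound to the pore by a disulfide bond, and was the most abundant of the 7 transcripts. Its lowest, median, and highest levels were 55.0, 76.5, and 93.2 FPKM with Ad-GFP and 53.8, 66.6, and 71.5 FPKM with Ad-h-NR4A2, from at least 4976 fragments in every sample. The Ad-GFP samples held 3 values between 55.0 and 66.8 FPKM and 3 between 86.3 and 93.2 FPKM, and the Ad-h-NR4A2 samples all lay at or below 71.5 FPKM. The SD was 17.3 FPKM with Ad-GFP and 7.37 FPKM with Ad-h-NR4A2; this difference in spread was not tested. The ratio of means was 0.870 and the log2 difference -0.18 ± 0.14 (95% interval -0.47 to 0.12, adjusted p = 0.339, limma), with p = 0.277 in the exact permutation test. Scn4b was lower in 5 of 6 pairs and higher in pair 24, with ratios from 0.767 to 1.13. With the sample number as a block, the same difference had an adjusted p of 0.0466.

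Scn2b, the neighbour of Scn4b, encodes the β2-subunit, which is also joined to the pore by a disulfide bond. It was at 0 in 3 samples of each group, and the other samples held 1 or 2 fragments each, up to 0.102 FPKM with Ad-GFP and 0.118 FPKM with Ad-h-NR4A2. Both groups summed to 4 fragments. A count of 0 allows up to 3 fragments per library, so no fold was computed, and a difference in Scn2b was not detectable at this depth.

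Within the summed FPKM of Scn2b, Scn3b, and Scn4b, the share of Scn3b was 3.66 ± 1.08% (SD, n = 6) in Ad-GFP cells and 6.67 ± 2.37% in Ad-h-NR4A2 cells, while Scn4b made up 96.3 ± 1.12% and 93.3 ± 2.41%. The Scn3b share was higher in 5 of 6 pairs, from 4.89 to 10.6% in pair 29, and it was 4.16 and 4.13% in pair 24. The ratio of Scn4b to Scn3b averaged 28.9 ± 10.5 in Ad-GFP cells and 15.5 ± 5.33 in Ad-h-NR4A2 cells. The sum itself was 77.6 ± 17.2 and 69.8 ± 7.20 FPKM. Scn4b thus remained at least 8.39 times as abundant as Scn3b in every sample. These shares are sums over chosen genes and were given no test.

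**Figure D3:**
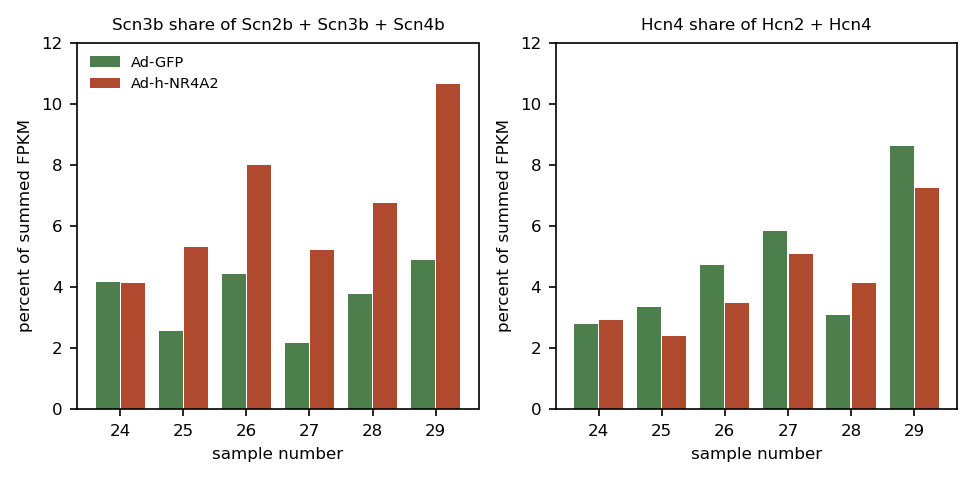
Share of Scn3b in the summed FPKM of Scn2b, Scn3b, and Scn4b, and share of Hcn4 in that of Hcn2 and Hcn4. Y axes show percent, from 0, and x axes the sample number, with Ad-GFP in green and Ad-h-NR4A2 in red. The Scn3b share is higher with Ad-h-NR4A2 in 5 of 6 pairs, and the Hcn4 share follows the sample number, with sample 29 highest in both groups.

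Among the pacemaker subunits, Hcn2 fell, and Hcn4 had a lower mean without passing the test used for calls, which leaves the sample number out. Hcn2 encodes the fast-activating subunit found in ventricle and brain. Its lowest, median, and highest levels were 21.7, 27.996, and 35.2 FPKM with Ad-GFP (1286 to 2116 fragments) and 15.4, 22.0, and 24.8 FPKM with Ad-h-NR4A2 (789 to 1459 fragments). Samples 25, 27, and 29 with Ad-h-NR4A2 lay below every Ad-GFP sample, and samples 24, 26, and 28 lay among the lower Ad-GFP samples. The ratio of means was 0.743 and the log2 difference -0.43 ± 0.14 (95% interval -0.74 to -0.12, adjusted p = 0.0300, limma), with p = 0.0303 in the exact permutation test. Hcn2 was lower in all 6 pairs, as were 29.1% of all genes, with ratios from 0.652 to 0.926. The fall was smaller than 1.5-fold. The adjusted p rested on single samples without the block: it was 0.0658, 0.0578, and 0.0651 without Ad-GFP sample 24, 25, or 28, and 0.0675 and 0.0681 without Ad-h-NR4A2 sample 27 or 29. With the sample number as a block and all 12 samples, the adjusted p of Hcn2 was 1.92e-04 (95% interval -0.56 to -0.30, limma). In that fit, 59.4% of all genes had an adjusted p below 0.05.

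Hcn4, the main subunit of the sinus node, is slow and strongly responsive to cAMP. Its lowest, median, and highest levels were 1.01, 1.19, and 2.14 FPKM with Ad-GFP (72 to 227 fragments) and 0.513, 0.858, and 1.32 FPKM with Ad-h-NR4A2 (53 to 115 fragments). Of the Ad-h-NR4A2 samples, 4 lay below every Ad-GFP sample, and sample 29 was highest in both groups, apart from the rest with Ad-GFP. The ratio of means was 0.669 and the log2 difference -0.53 ± 0.22 (95% interval -0.999 to -0.066, adjusted p = 0.0646, limma), with p = 0.0455 in the exact permutation test. Hcn4 was lower in all 6 pairs, with ratios from 0.506 in pair 25 to 0.989 in pair 28. With the sample number as a block, the adjusted p was 0.00296. Without Ad-GFP sample 29, the ratio was 0.766 and the adjusted p 0.131, and without Ad-h-NR4A2 sample 29 they were 0.601 and 0.0269. The sinus node and conduction markers (Tbx3, Shox2, Isl1, Cntn2) summed to 0.438 to 1.13 FPKM with Ad-GFP and 0.638 to 0.887 FPKM with Ad-h-NR4A2, with 0 of 2 tested called. Of these, Shox2 was at 0 in 11 of 12 samples, and Isl1 had at most 1 fragment per sample. Cntn2 averaged 0.185 ± 0.113 FPKM with Ad-GFP and 0.0728 ± 0.0381 FPKM with Ad-h-NR4A2, lower in 5 of 6 pairs, and did not pass the test (ratio 0.393, adjusted p = 0.0594, limma; p = 0.0411 in the exact permutation test). The part of such transcripts in the Hcn4 values was not tested.

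Summed, Hcn2 and Hcn4 made 29.4 ± 5.13 FPKM (SD, n = 6) with Ad-GFP and 21.7 ± 3.82 FPKM with Ad-h-NR4A2, lower in all 6 pairs. The share of Hcn4 was 4.73 ± 2.23% and 4.20 ± 1.76%, lower in 4 of 6 pairs. It ranged from 2.79% in sample 24 to 8.63% in sample 29 with Ad-GFP, and from 2.39% in sample 25 to 7.25% in sample 29 in cells with Ad-h-NR4A2. The spread between sample numbers was thus wider than the mean difference between groups, and no test was made of the share.

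Within groups, pairs of subunits varied in the same direction, in opposite directions, or with little relation. Deviations from the group means of log2(FPKM + 0.1) over the 12 samples, which share sample numbers in pairs, had a Pearson correlation of -0.85 between Scn4a and Hcn2, 0.74 between Scn3a and Scn4b, and 0.63 between Hcn4 and either Scn3b or Scn4a. Hcn2 and Hcn4 had a correlation of -0.49, and Scn3b and Scn4b of -0.13. Samples 27 and 29 had the 2 highest Scn4a levels and the 2 lowest Hcn2 levels in both groups. With Ad-GFP, Hcn2 was 21.7 FPKM in sample 27 and 22.7 in sample 29, and with Ad-h-NR4A2 15.4 and 17.0 FPKM. Sample 24 had the lowest Scn4a level in both groups, 0.140 and 0.0887 FPKM. Sample 29 was highest in both Hcn4 and Scn3b in either group. These values describe 12 samples that form 6 pairs, and carry no test.

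**Figure D4:**
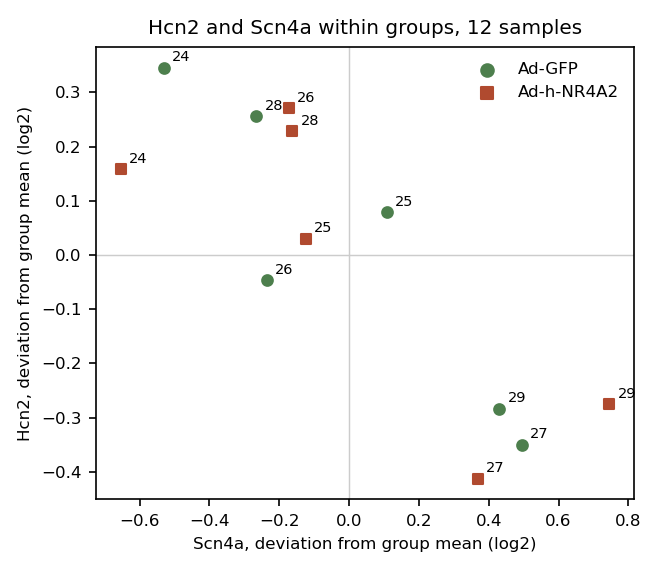
Deviation from the group mean of log2(FPKM + 0.1) for Scn4a (x axis) and Hcn2 (y axis); each point is 1 of 12 samples with its number, green circles for Ad-GFP and red squares for Ad-h-NR4A2. Samples 27 and 29 of both groups lie at the lower right and samples 24 and 28 at the upper left.

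For each tested subunit, the 3 genes with the most similar deviations were listed among about 8977 genes with a mean of at least 1 FPKM, as a description over 12 samples. Those of Hcn2 were Mcur1 (r = 0.99), Tmem161a (0.98), and Rsrp1 (0.95), and those of Hcn4 were Ppp6r2 (0.94), Gadd45g (0.94), and Ctgf (0.93). Scn3b was nearest to Ppard (0.91), Zfp143 (0.90), and Slc25a25 (0.89), and Scn4b to Acadvl (0.86), Tp53i3 (0.86), and F11r (0.85). For Scn4a, they were Angpt1 (0.96), Plekhb2 (0.96), and Camta1 (0.95), and for Scn3a, whose deviations rest on few fragments, Ccdc102a (0.90), Ica1 (0.85), and Hs3st1 (0.84). Similar deviations within groups did not mean a like difference between groups. The log2 difference of Rsrp1 was 0.72, against -0.43 for Hcn2, and that of Slc25a25 was -0.47, against 0.71 for Scn3b.

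Proteins that anchor, modify, or turn over sodium channels were followed through 18 genes, of which 16 could be tested. One rose and 3 fell past both limits, the median log2 difference was -0.15, and the groups of 3 of these 4 did not overlap. Over all genes tested, 15.2% were called. The share without overlap was 21.5% over all tested genes, called or not. These 4 were picked by the call, so their overlap cannot be set against that share. Gpd1l, the glycerol-3-phosphate dehydrogenase-like protein known to affect sodium channel trafficking, rose from 30.7 ± 1.81 to 55.6 ± 6.09 FPKM (adjusted p = 8.27e-07, limma). Ank3, which encodes the ankyrin that anchors sodium channels at the membrane, fell from 11.1 ± 1.502 to 6.49 ± 0.684 FPKM (adjusted p = 3.06e-05). Dlg1, the scaffold SAP97, fell from 28.7 ± 3.68 to 18.5 ± 2.28 FPKM (adjusted p = 1.30e-04); without Ad-GFP sample 28, its ratio was 0.670, just short of 1.5-fold. Gja1, the gap junction protein connexin 43 of the intercalated disc, fell from 374 ± 52.2 to 204 ± 44.9 FPKM (adjusted p = 9.57e-05), and its highest Ad-h-NR4A2 value, 293 FPKM, was above the lowest Ad-GFP value, 283 FPKM. The other 12 tested genes of the list passed neither or only the first limit. Of the remaining sodium and HCN channel subunits, 10 were in the tables, 3 could be tested, and 2 fell past both limits, against 7.24% of all genes, with a median log2 difference of -0.78 over the 3.

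**Figure D5:**
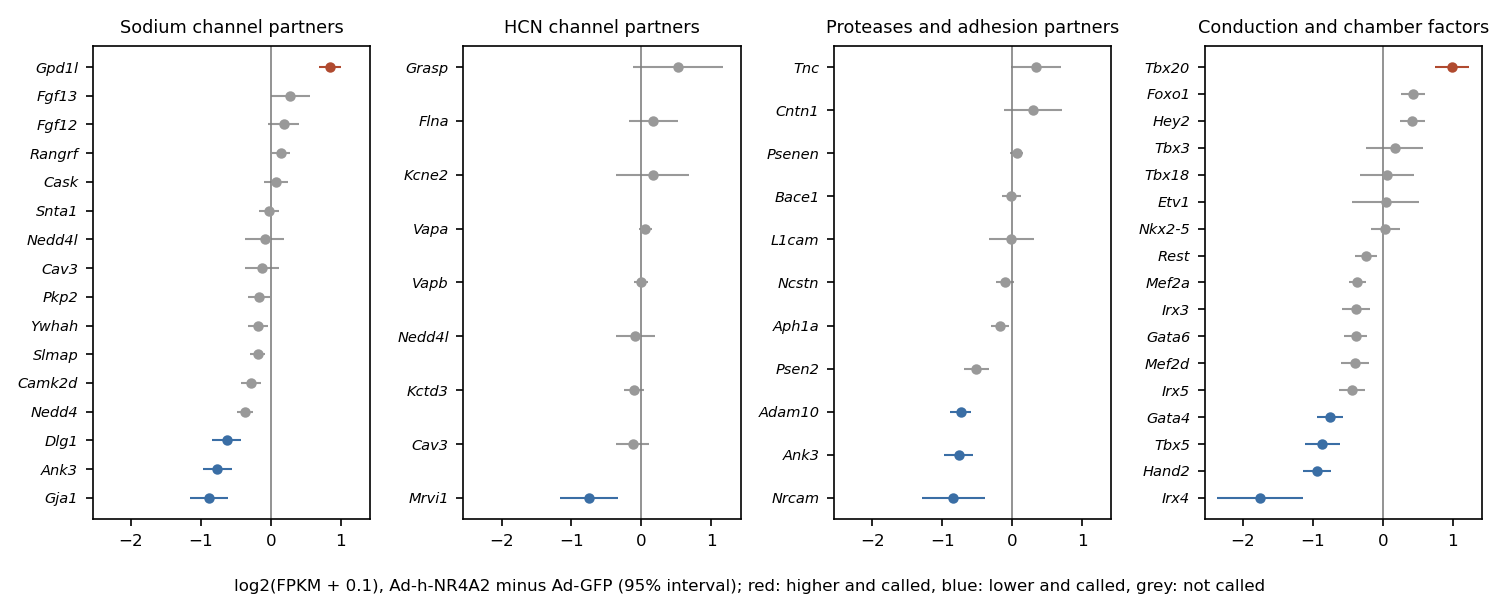
Difference in log2(FPKM + 0.1), Ad-h-NR4A2 minus Ad-GFP (x axis, bars are 95% intervals from limma, n = 6 per group), for the tested genes (y axes) of 4 lists, except 1 not shown; red genes rose and blue genes fell past both limits, and grey genes did not pass both. Gpd1l and Tbx20 are the 2 red genes, and Ank3, which belongs to 2 lists, is blue in each.

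Among 15 genes for proteases that cut β-subunits and for their adhesion partners, 12 could be tested, 0 rose, and 3 fell (7.24% of all genes fell past both limits), with a median log2 difference of -0.14. Adam10, a membrane protease that sheds ectodomains, fell from 18.8 ± 1.67 to 11.3 ± 0.851 FPKM (adjusted p = 2.15e-06, limma). Nrcam, a neuronal-type cell adhesion molecule that binds β-subunits, fell from 1.15 ± 0.435 to 0.569 ± 0.0894 FPKM (adjusted p = 0.00592). Ank3, given above, was the other one.

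Of 10 genes for HCN channel partners, 9 could be tested, 0 rose, and 1 fell (7.24% of all genes did), with a median log2 difference of -0.01. This was Mrvi1 (also Irag1), which encodes a cGMP kinase substrate of the endoplasmic reticulum that can modulate HCN4, and which fell from 0.495 ± 0.178 to 0.245 ± 0.0593 FPKM (adjusted p = 0.00734, limma). With the sample number as a block, 2 were called, the second being Grasp, which encodes a scaffold protein and is named after its values were seen (0.298 ± 0.171 and 0.461 ± 0.1999 FPKM, higher in 6 of 6 pairs), with an adjusted p of 0.0379, against 0.178 without the block; over all genes, 16.7% were called with the block. The gene left out of the test was Pex5l (TRIP8b), an auxiliary subunit of HCN channels in neurons, named here after its values were seen. Pex5l was at 0 in all 6 Ad-GFP samples, which allows up to 3 fragments per sample, and had 5, 6, 8, 10, 13, and 24 fragments in the Ad-h-NR4A2 samples, from 0.125 to 0.668 FPKM. The groups did not overlap, as for 21.5% of the genes tested, to which Pex5l does not belong. No test is given for Pex5l.

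Transcription factors of the conduction system and the cardiac chambers were followed through 20 genes, 17 of them tested. One rose, 4 fell past both limits, and the median log2 difference was -0.36; none of these 5 overlapped between groups. The share called over all genes was 15.2% (7.94% as a rise, 7.24% as a fall). Over all tested genes, called or not, 21.5% were without overlap. Because these 5 were picked by the call, their lack of overlap cannot be set against that share. Tbx20, a T-box factor of the adult myocardium, rose from 32.2 ± 3.35 to 64.9 ± 13.4 FPKM (adjusted p = 1.23e-05, limma). Tbx5, a T-box factor that drives genes of the ventricular conduction system, fell from 5.69 ± 0.744 to 3.09 ± 0.503 FPKM (adjusted p = 5.23e-05). Irx4, a homeobox factor of ventricular identity, fell from 10.0 ± 3.16 to 2.97 ± 1.19 FPKM (adjusted p = 2.44e-04), the farthest ratio of the list at 0.296. Gata4 fell from 38.4 ± 3.21 to 22.8 ± 2.87 FPKM (adjusted p = 1.23e-05) and Hand2 from 69.4 ± 6.33 to 36.2 ± 5.73 FPKM (adjusted p = 3.15e-06); both are factors of early heart formation. Tbx3, a repressor that marks the sinus node and is known to favour Hcn4, was 0.546 ± 0.188 and 0.611 ± 0.122 FPKM and did not pass the test (adjusted p = 0.497).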

How the data were processed

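RNA of 12 ARVM cultures was measured by RNA-Seq. The authors made stranded mRNA libraries, sequenced them in 1 pooled run, aligned reads with STAR to Rn5, and quantified RefSeq transcripts with Cufflinks; the deposited FPKM values were used as they are. Of 225024 values, 225016 had confidence limits equal to the FPKM, and limits were not used as errors. Groups and sample numbers came from the labels.

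Where a gene had several transcripts, the most abundant one on average was kept. The 10950 genes detected in every sample were tested with limma 3.58.1 (R 4.3.3; lmFit, eBayes with trend) on log2(FPKM + 0.1), two-sided, with Benjamini-Hochberg adjustment over all of them. A call needed an adjusted p below 0.05 and a 1.5-fold ratio of mean FPKM. FPKM differences on this scale understate changes of low genes. For each subunit, an exact permutation test (two-sided) ran over all 924 assignments of 6 and 6, without regard to sample numbers. The fit was tested on simulated data first. Python 3.11.15 with Matplotlib 3.10.9, SciPy 1.17.1, NumPy 2.4.6, and pandas 2.3.3 made the tables and plots.

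Experiments were independent, each with cells of another rat according to the paper, and what the number stands for is not labelled. Same-numbered samples deviated together (correlation of deviations from group means 0.35 to 0.62, average 0.50), so numbers were taken as pairs, in an alternative fit. Fragments were recovered from the step between low values of transcripts of at least 800 nucleotides; 99.4 to 99.9% of values of up to 6 fragments were whole within 0.05. Intervals and floors cover counting error or the spread between samples only.

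The subunits, marker lists, and partner lists were chosen with earlier results of these data known. Named were the subunits, the called genes of each list, the 3 nearest genes of each subunit, Nr4a2, and markers; other genes are said to be chosen afterwards. Some channel subunits and 1 other list gene are counted but not reported by name here. Alternatives were pseudocounts of 1 and 0.01, quantile normalization, the TPM scale, no filter, a minimum mean of 1 FPKM, no trend, the replicate block, transcripts summed, fold limits of 2 and none, and each sample left out.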

Additional observations from a re-analysis of the deposited data

Results flagged for a closer look

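Hcn4 in Ad-GFP sample 29, at 2.14 FPKM, stood apart from the other 5 Ad-GFP samples, which lay between 1.01 and 1.35 FPKM. Its gap to the nearest of them was 0.703 of the group's whole range, above the critical value of 0.625 for 6 samples. Chance alone sets a sample apart in about 1 of 20 groups, and 14 groups were examined, so a single such sample is not unusual. Sample 29 was also the highest in Hcn4 with Ad-h-NR4A2, at 1.32 FPKM, and the ratio within pair 29 was below 1, as in the other pairs.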

How the results depend on the processing

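Scn3b kept its rise and its adjusted p below 0.05 in 9 of 9 alternatives and with each sample left out, Hcn2 in 9 of 9 and 7 of 12; Scn4a passed in none. Directions of all 6 subunits held throughout. Scn3a passed with a pseudocount of 0.01 (-0.99 log2), with no filter (-0.33), and without trend (-0.33). Hcn4 passed with quantile normalization (-0.60). With the replicate block, Hcn4 (-0.53) and Scn4b (-0.18) passed on adjusted p, short of 1.5-fold, so that called subunits stayed at 1, and HCN partners gave 2 calls; no other list count changed. Leaving out 1 sample gave -0.40 to -0.27 for Scn3a, -0.50 to -0.34 for Hcn2, -0.65 to -0.39 for Hcn4, and 1 to 2 called subunits, the second being Scn3a without Ad-GFP sample 24 or Hcn4 without Ad-h-NR4A2 sample 29. Sodium channel partners gave 3 calls without Ad-GFP sample 28 (Dlg1 lost) and 4 without any other single sample. Called subunits were 0 with a fold limit of 2 and 2 with no fold limit, a pseudocount of 0.01, no filter, or no trend. A fold limit of 2 left 803 of all genes, 0 sodium channel partners, 1 other subunit, 1 protease or adhesion gene, and 2 transcription factors. No fold limit gave 4484, 8, 2, 6, and 13. Summed transcripts gave 1 other subunit, and HCN partners gave 2 calls with no filter and 0 at a mean FPKM of at least 1. With no filter, 10 HCN partners were tested and 1 was called higher. These 10 include Pex5l, which was at 0 in all 6 Ad-GFP samples. Fold limits and filters act by their construction; for the rest, the cause was not tested. Depth limits Scn2b and Scn3a, which rest on few fragments.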

Other observations

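Several partner genes passed the adjusted p without reaching 1.5-fold, and some of them are named here after their values were seen. Further genes of the partner and transcription factor lists did so too and are not described here. On adjusted p alone, 40.9% of all genes passed, 19.3% higher and 21.7% lower. Of the sodium channel partners, Nedd4, a ubiquitin ligase, was lower in all 6 pairs, at 240 ± 17.0 and 186 ± 10.8 FPKM (SD, n = 6; adjusted p = 1.04e-04, limma). Camk2d, the main cardiac calcium/calmodulin kinase, was 112 ± 3.54 and 92.8 ± 10.5 FPKM (adjusted p = 0.00320). Psen2, a subunit of the γ-secretase that cuts β-subunits within the membrane, was 50.8 ± 2.00 and 36.0 ± 5.43 FPKM (adjusted p = 2.62e-04).

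Of the transcription factors, Irx3 and Irx5, homeobox factors of the ventricular conduction system and wall, were lower in all 6 pairs. Irx3 was 5.81 ± 0.814 and 4.41 ± 0.324 FPKM (adjusted p = 0.00525, limma), and Irx5 was 9.63 ± 1.07 and 7.07 ± 0.715 FPKM (adjusted p = 0.00127). Hey2 and Foxo1 were higher in all 6 pairs. Hey2, a repressor of the compact ventricular wall, was 6.44 ± 0.757 and 8.66 ± 0.678 FPKM (adjusted p = 0.00119), and Foxo1 was 6.17 ± 0.656 and 8.35 ± 0.660 FPKM (adjusted p = 7.78e-04). Groups of these 4 genes, picked after their values were seen, did not overlap, as for 21.5% of all genes tested. Of the 17 tested factors, called ones included, 10 passed the adjusted p as lower and 3 as higher. Over all genes, 21.7% passed as lower and 19.3% as higher.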
